A study of Mus musculus with 6 samples.

Results

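The 12S and 16S ribosomal RNAs of the mitochondrion, encoded by mt-Rnr1 and mt-Rnr2, were followed in RNA sequencing of mouse hearts. They were taken by name from the deposited count tables, as 2 of the 51888 features counted, and both passed the filter on low counts. The study compared 3 control mice with 3 knockout mice, and 1 count column per mouse was used, although each RNA was sequenced in technical replicates. In both groups an exon of Elac2 is flanked by loxP sites (L/L in the sample titles). The knockouts also carry cre, driven by the muscle creatine kinase promoter (L/L, cre). The genotype field of the labels gives the controls as Elac2 +/+ and the knockouts as Elac2 -/-. All mice had a C57BL/6 background, the sources used here do not give their age, and total RNA came from whole hearts, so cells in which this promoter is silent contribute to each library.

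The 12S rRNA is the RNA core of the small subunit of the mitochondrial ribosome, where messages are decoded, and the 16S rRNA is that of the large subunit, where peptide bonds form. These ribosomes make the few respiratory chain proteins that mitochondrial DNA encodes, and the heart is rich in them. Both rRNAs are transcribed from the heavy strand promoter as part of one long precursor, in which tRNAs stand between and beside them. RNase P cuts at the 5′ end of each tRNA and RNase Z, the product of Elac2, cuts at the 3′ end, and these cuts release the rRNAs.

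The boundary sequences are shown because the question of the study, what loss of the tRNA 3′ end nuclease does to mitochondrial RNA, bears on them directly. They are from the GENCODE M21 transcripts, plus strand of chromosome M in GRCm38, the same build as mm10. The 12S gene spans positions 70 to 1024 (955 bases) and the 16S gene positions 1094 to 2675 (1582 bases). Both are single-exon rRNA genes without UTRs. Capitals mark rRNA and lower case marks tRNA, and a cut by RNase Z is one at a change from lower case to capitals.
end of mt-Tf (tRNA for phenylalanine), chrM:39-68: gcttagatggataattgtatcccataaaca
start of mt-Rnr1 (12S), chrM:70-99: AAAGGTTTGGTCCTGGCCTTATAATTAATT
end of 12S, mt-Tv (tRNA for valine), start of 16S, chrM:995-1123: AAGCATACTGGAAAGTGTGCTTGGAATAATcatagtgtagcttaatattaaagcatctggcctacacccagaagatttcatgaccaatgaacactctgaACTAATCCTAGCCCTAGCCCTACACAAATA
end of 16S, mt-Tl1 (tRNA for leucine), chrM:2646-2750: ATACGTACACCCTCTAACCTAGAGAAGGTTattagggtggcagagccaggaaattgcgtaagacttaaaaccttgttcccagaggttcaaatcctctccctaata
The annotation leaves 1 base between mt-Tf and 12S and 0 bases on either side of mt-Tv. The 5′ end of 16S therefore lies at an RNase Z site and that of 12S 1 base from one, and the 3′ ends of both lie at RNase P sites. The tRNA stretches lack the terminal CCA that is added after cutting, as do the annotated genes of all but 1 of the 22 mitochondrial tRNAs. Counts are per whole gene, so a read of a mature rRNA and one of an uncut precursor cannot be told apart, nor can transcripts of the opposite strand, as the sources used here do not say whether counting used strand.

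The libraries held 9850100 to 14461110 counts. Elac2 was lower in each knockout (5.36, 5.63 and 6.52 CPM, counts scaled to a common library size) than in each control (13.01 to 15.05 CPM), and its log2 fold change was -1.27 (adjusted p = 2.12e-04). The heart was recognisable by cardiomyocyte markers, all 10 of which were detected. Their summed level was 41950 to 43007 CPM in controls and 21314 to 24006 CPM in knockouts, with 4 of 10 lower and 0 higher. Myh6, the largest of them, was at 18402 to 20235 CPM in controls and 7348 to 8177 CPM in knockouts. For Tnni3, Myl3, Mybpc3 and Nkx2-5 the groups overlapped. Endothelial markers summed to 476 to 555 CPM in controls and 359 to 404 CPM in knockouts (3 of 6 lower, 0 higher), and smooth muscle and pericyte markers to 796 to 1016 and 539 to 631 CPM (2 of 6 lower, 1 higher). Atrial markers were at 347 to 1469 CPM in controls and 3374 to 4845 CPM in knockouts (1 of 5 higher, 0 lower). Within that set Nppa was at 193 to 811 CPM in controls and 2945 to 4577 CPM in knockouts. The groups overlapped for each of the other atrial markers, Sln, Myl7, Myl4 and Bmp10. Fibroblast markers were at 482 to 622 and 665 to 1093 CPM (1 of 6 higher, 0 lower) and macrophage markers at 160.3 to 179.9 and 182 to 209 CPM (1 of 6 higher, 0 lower). Erythroid markers overlapped, at 438 to 1464 and 1168 to 2417 CPM (1 of 4 higher, 0 lower). Of all 14302 genes tested 17.8% were called lower and 18.7% higher, so 1 called marker in a set of 4 to 6 is near that share. In bulk tissue, fewer cells of a type and less RNA per cell cannot be told apart, and the part of these shifts in the rRNA values was not tested. Of 6 skeletal muscle markers 5 were at 1.01 CPM or below in every library, and the other, Ckm, which the heart also expresses, was at 899 to 1017 CPM in controls and 223 to 310.2 CPM in knockouts and was called lower. Control 3 stood apart in nuclear ribosomal RNA. Gm42418, which RefSeq lists as Rn18s-rs5, a sequence related to 18S rRNA, held 236190 counts there and 296 to 3996 in each other library. The 5 nuclear loci chosen to follow ribosomal RNA, Gm42418, Gm26917, AY036118, Gm15564 and Lars2, took 0.095%, 0.0491% and 2.49% of the controls and 0.307%, 0.186% and 0.174% of the knockouts. The knockouts were thus above controls 1 and 2, and Gm26917, which held most of these counts there, rose by 0.98 (adjusted p = 8.39e-03). The sources used here do not say whether ribosomal RNA was removed before the libraries were made. How far such a step acted on 12S and 16S was not tested, so their results are also given without control 3.

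The 12S rRNA was lower in every knockout heart than in every control heart. Its level, relative to the library size scaled by TMM, was 44164, 106034 and 156117 CPM in controls 1, 2 and 3 and 29773, 16396 and 20100 CPM in the knockouts. Control 1 lay nearest to the knockouts, and the controls differed among themselves by 3.53-fold from lowest to highest. The means were 102105 ± 56080 and 22090 ± 6907 CPM (SD, n = 3 each), a log2 difference of -2.21 in the edgeR fit (SE 0.45, adjusted p = 4.20e-03). Of all 14302 genes tested, 36.5% were called at an adjusted p under 0.05 and 17.8% were called lower, and 24.5% had all knockouts below all controls in CPM (50.6% were separated in either direction). Without control 3 the difference was -1.76 (SE 0.43, adjusted p = 0.0202), and without control 1 it was -2.56 (adjusted p = 1.75e-03).

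The 16S rRNA was the most abundant feature of every library and was also lower in the knockouts. Its levels were 419017, 618877 and 537532 CPM in controls and 185521, 213668 and 230167 CPM in knockouts, so the lowest control was above the highest knockout. The controls varied by 1.48-fold, the smallest spread of the 13 mitochondrial features, where 12S was in the middle at rank 7. Means were 525142 ± 100505 and 209785 ± 22575 CPM (SD, n = 3 each), a log2 difference of -1.32 (SE 0.32, adjusted p = 0.0104). Without control 2 this call was lost (value -1.18, adjusted p = 0.0584), and without control 3 it was -1.30 (adjusted p = 0.0493).

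Plain shares of the library went in the same direction. A share divides by all counts of the library, so its scale is close to that of library size alone. On that scale, given below, 16S did not pass the edgeR test. The 12S rRNA took 4.11%, 7.60% and 11.2% of all counts in controls and 3.88%, 2.07% and 2.53% in knockouts. Control 1 and knockout 1 were thus separated by little, although each share is known closely, with 95% Wilson intervals of at most 0.0178 percentage points to either side. The 16S rRNA took 39.0%, 44.4% and 38.4% in controls and 24.2%, 27.0% and 29.0% in knockouts, with intervals of at most 0.0283 percentage points to either side and no overlap between groups. Such intervals cover counting error only. Mean shares went from 7.62 ± 3.52% to 2.83 ± 0.940% for 12S and from 40.6 ± 3.29% to 26.7 ± 2.43% for 16S (SD, n = 3 each). An exact permutation test, two-sided, gave p = 0.1 for both rRNAs, and no smaller value is possible with 3 mice per group. By the same measure 4.53% of tested genes had all knockouts below all controls. The difference of 12S was -4.79 percentage points, -3.03 without control 3.

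**Figure D1:**
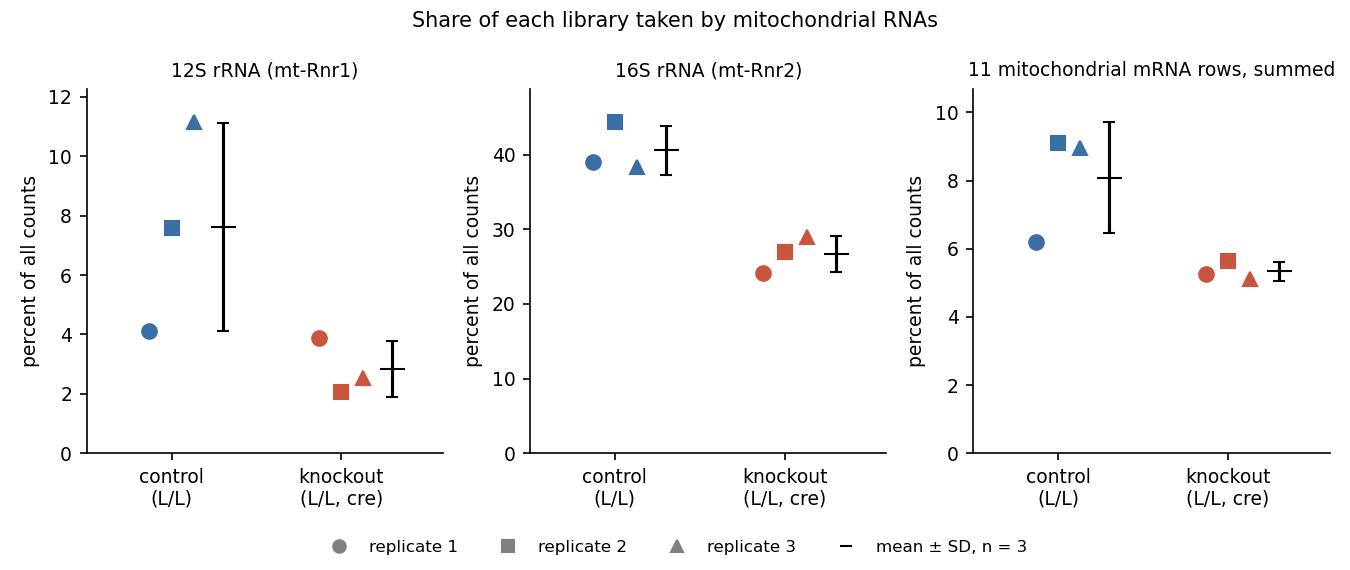
Percent of all counts (y axis) taken by 12S, by 16S and by the 11 mitochondrial mRNA features summed, in each control and knockout library (points, with the shape giving the replicate number) and as mean ± SD (n = 3). No knockout point reaches a control point in any panel, and the nearest pair is 12S in control 1 at 4.11% and knockout 1 at 3.88%.

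How far the rRNAs fell depended on what they were measured against. Per 100 counts of nuclear genes, the 12S rRNA went from 18.2 ± 9.44 in control mice to 4.33 ± 1.35 in knockout mice and the 16S rRNA from 94.5 ± 18.6 to 41.1 ± 4.79 (SD, n = 3 each). With library size alone as the scale, which moved the median over all tested genes from -0.013 to 0.68, 12S fell by 1.43 (SE 0.35, adjusted p = 1.10e-03). The value of 16S there was -0.60 (SE 0.30, adjusted p = 0.0811), which did not pass the test. On that scale 60.4% of genes were called, 3.86% lower and 56.6% higher. With the summed mitochondrial mRNAs as the scale neither rRNA passed the test. The value of 12S was -0.78 (SE 0.38, adjusted p = 0.0569) and that of 16S was -0.036 (SE 0.35, adjusted p = 0.924), while 71.6% of genes were called, 70.6% higher and 1.04% lower. The authors' deposited table gives -2.17 for 12S (SE 0.522, adjusted p = 2.88e-04) and -1.29 for 16S (SE 0.164, adjusted p = 1.99e-13).

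**Figure D2:**
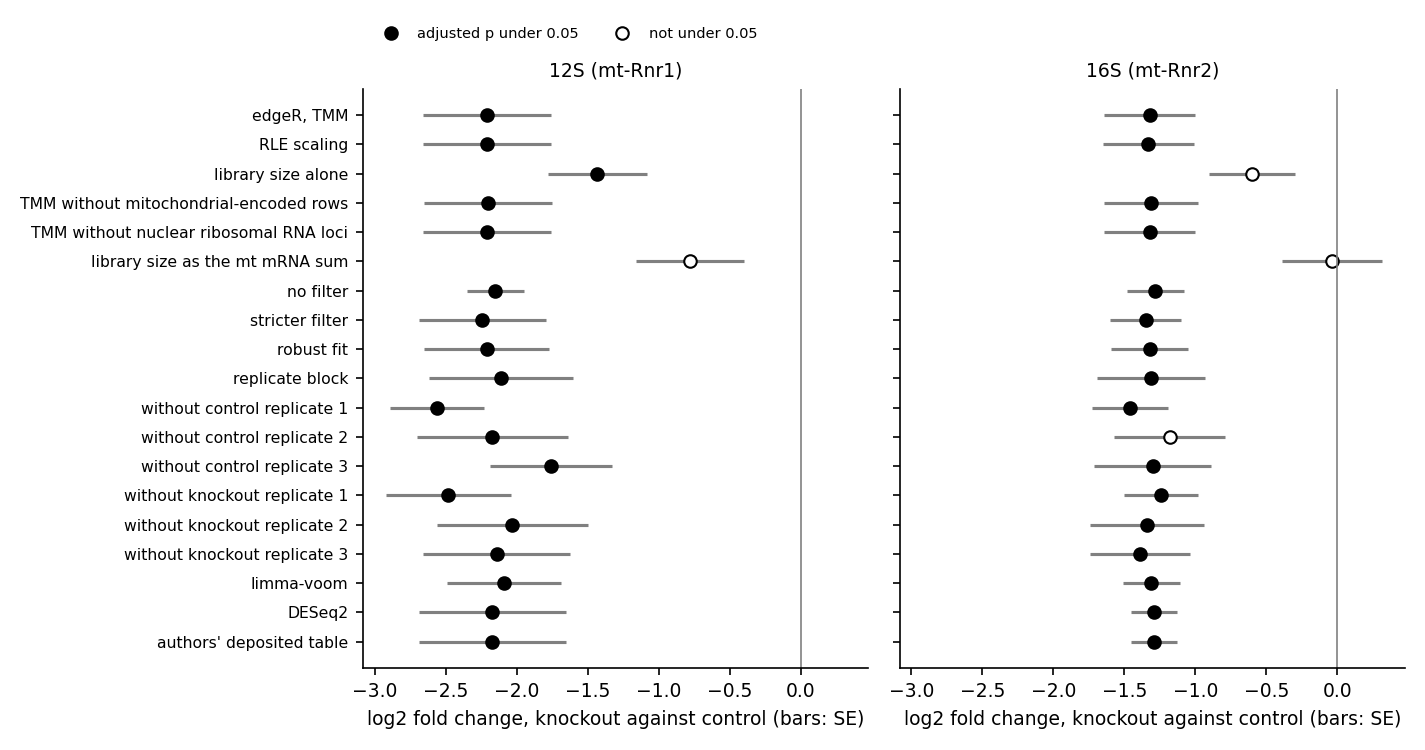
Log2 fold change of 12S and 16S, knockout against control (x axis, bars are SE), in the fit with TMM and under each alternative setting (rows). Every point is below 0, and open points mark values that did not pass the test, 1 for 12S and 3 for 16S.

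Within a library the 12S to 16S ratio is free of any scaling. Per kilobase of annotated length, 12S was second to 16S among the 13 mitochondrial features in all 6 libraries. For each 16S there were 0.175, 0.284 and 0.481 of 12S in controls and 0.266, 0.127 and 0.145 in knockouts. The groups overlapped, with knockout 1 above control 1. Although a ribosome holds 1 of each, no library had equal counts per kilobase. On the log2 scale the count ratio averaged -2.53 (SD 0.731) over control mice and -3.29 (SD 0.568) over knockout mice, a difference of -0.76 (two-sided exact permutation p = 0.2, where 0.1 is the smallest possible). The difference was -0.39 without control 3, which held the most 12S per 16S, and -1.12 without control 1. The difference was close in size to the SD among controls, and a difference between the groups in this ratio was not shown.

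**Figure D3:**
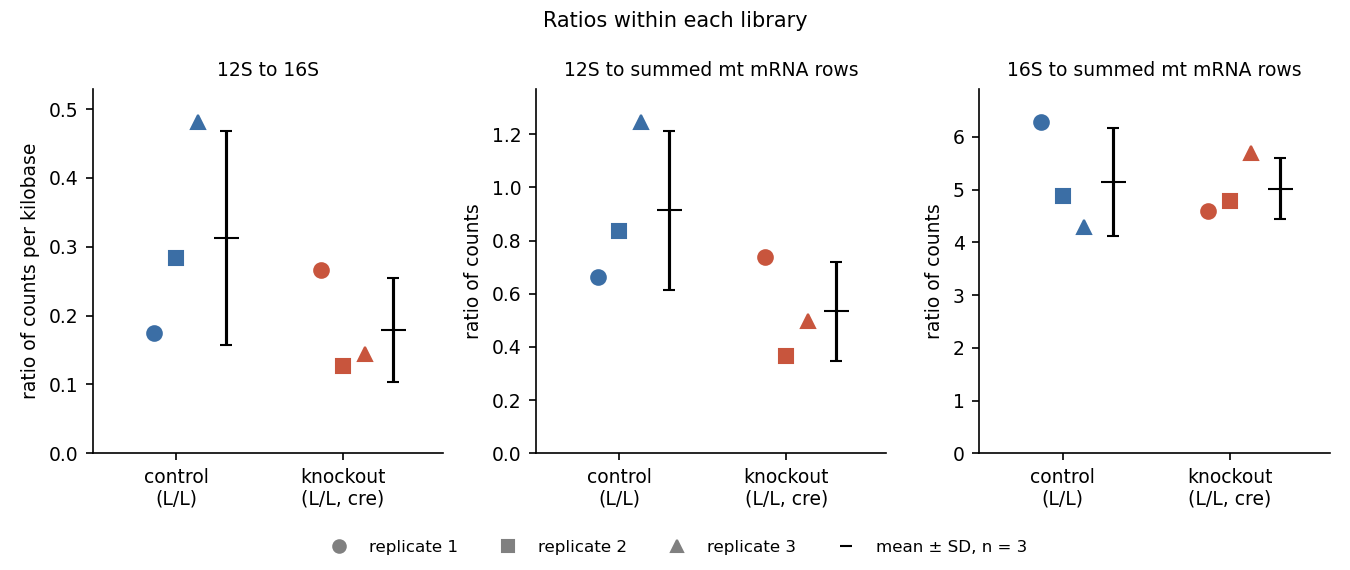
Ratio of 12S to 16S in counts per kilobase, and ratios of the counts of 12S and of 16S to the summed counts of the 11 mitochondrial mRNA features, for each library (points) with mean ± SD (n = 3) by group. The groups overlap in every panel, and knockout 1 lies above control 1 in the panels of 12S.

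Against the mitochondrial mRNAs, the products of the same genome, the rRNAs together had overlapping proportions in both groups. They made up 87.4%, 85.1% and 84.7% of mitochondrial counts in controls and 84.2%, 83.7% and 86.1% in knockouts. There were 6.94, 5.71 and 5.54 rRNA counts per mRNA count in controls and 5.33, 5.15 and 6.19 in knockouts, a mean log2 difference of -0.12 (two-sided exact permutation p = 0.5), in groups that overlapped. That value depended on how the mRNAs were combined. It was -0.32 with mt-Co1 left out of the sum, -0.40 over the mRNA features without a near-identical nuclear copy and -0.87 with the median of the ratios to single mRNAs, with two-sided exact permutation p = 0.2, 0.6 and 0.2. The median was taken within each library and does not rest on the same mRNA in each. Taken alone, 16S had 6.28, 4.87 and 4.29 counts per mRNA count in controls and 4.59, 4.78 and 5.69 in knockouts. Its difference of -0.024 (two-sided exact permutation p = 0.9) turned to 0.13 without control 1. For 12S the ratio was 0.662, 0.835 and 1.25 in controls and 0.737, 0.367 and 0.497 in knockouts, a difference of -0.79 (two-sided exact permutation p = 0.2) with knockout 1 above control 1. These sums are led by mt-Co1, the largest mRNA feature. With the median of the ratios to the single mRNAs in place of the sum, the differences were -1.53 for 12S and -0.77 for 16S, with two-sided exact permutation p = 0.1 and 0.4. These also mix a change of comparator, as the median ratio of 16S was that to mt-Nd5 in control 1 and to mt-Nd3 in knockout 1. Taken mRNA by mRNA, the median difference was -0.79 for 12S and -0.028 for 16S.

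Set against each of the 11 mRNA features in turn, the rRNAs gave 22 pairs. The ratio of 12S was lower in knockouts for 10 features and higher for 1, mt-Nd6, with a median log2 difference of -0.79. The ratio of 16S was lower for 6 and higher for 5, with a median of -0.028. Groups did not overlap in 4 pairs of 12S, each lower, and in 2 of 16S, 1 lower and 1 higher. Over all tested genes with counts in every library, that happened for 78.1% (lower) and 0.112% (higher) with 12S, and for 82.8% (lower) and 1.16% (higher) with 16S. No pair can have an exact permutation p below 0.1, and the smallest adjusted over the 22 pairs was 0.367.

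The pair that moved furthest was each rRNA with mt-Nd3, a complex I subunit mRNA. The comparator itself moved, as mt-Nd3 was the only mitochondrial feature with a positive log2 fold change (0.62, adjusted p = 0.0466). Its pairs therefore hold a rise of mt-Nd3 as well as the fall of the rRNA. There were 285, 251 and 276 counts of 16S per count of mt-Nd3 in controls and 70.7, 64.4 and 74.4 in knockouts, a log2 difference of -1.96 with SDs of 0.0970 and 0.106. For 12S these ratios were 30.1, 42.9 and 80.2 in controls and 11.4, 4.94 and 6.50 in knockouts, a difference of -2.72. At the other end stood mt-Nd6, the mRNA encoded on the opposite strand to the rRNAs. Its own log2 fold change, -2.635 (adjusted p = 1.93e-03), was the lowest of the mitochondrial features. Counts of 16S per count of mt-Nd6 were 3464, 1918 and 849 in controls and 3027, 4135 and 3827 in knockouts, a difference of 1.03 in groups that overlapped. The mt-Co1 mRNA, of complex IV, stayed nearest to 16S among the controls. It had 11.7, 10.7 and 10.8 counts of 16S per count in controls and 11.8, 12.2 and 15.0 in knockouts, a difference of 0.23. For mt-Nd1, the first mRNA after 16S in the precursor, the 12S ratio was 21.8, 17.6 and 20.5 in controls and 10.5, 5.06 and 7.46 in knockouts, a difference of -1.44. The 12S ratio also fell without overlap against mt-Nd2 (-1.76) and mt-Atp8_6 (-1.25). The 16S ratio to mt-Nd1 differed by -0.68, in groups that overlapped.

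**Figure D4:**
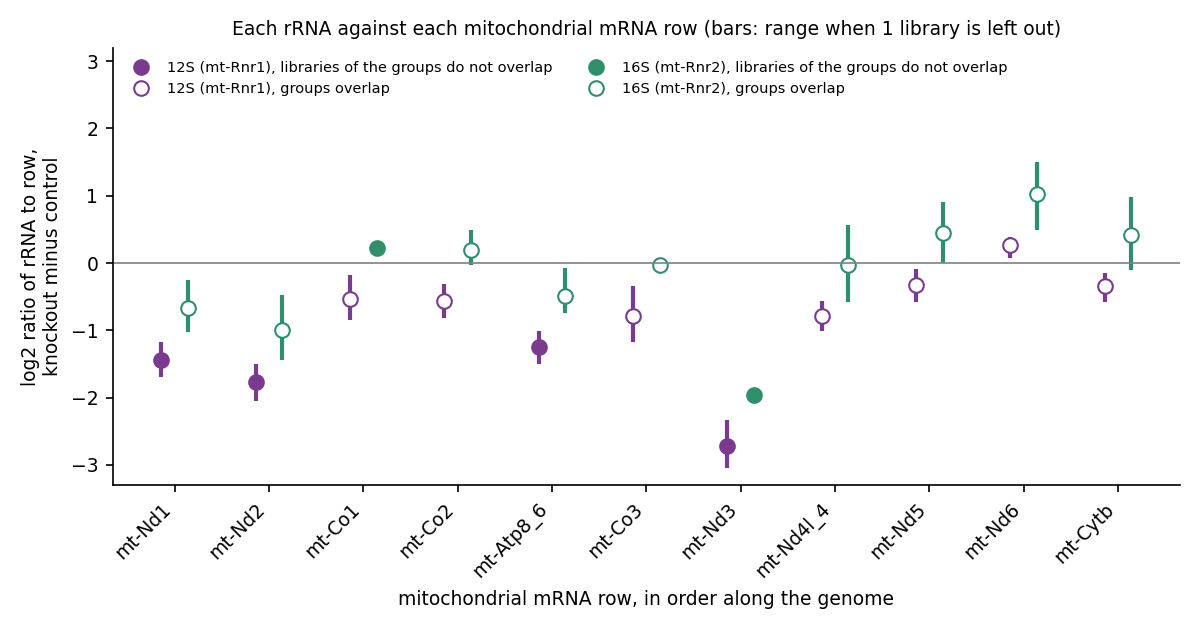
Difference between knockout and control (y axis, log2) in the ratio of 12S or 16S to each mitochondrial mRNA feature (x axis, in genome order), with filled points where the groups do not overlap and bars for the range when 1 library is left out. The lowest points of both rRNAs are at mt-Nd3 (-2.72 and -1.96) and the highest at mt-Nd6 (0.27 and 1.03).

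Within the control group the 2 rRNAs had different profiles. The 12S rRNA was lowest in control 1 and highest in control 3, as were 8 of the 11 mRNA features, and in 12S to mRNA ratios the controls varied least with mt-Nd1 (SD 0.159 on the log2 scale) and mt-Nd5 (SD 0.186). The 16S rRNA was highest in control 2, as were mt-Co1, mt-Co3 and mt-Nd3, and its ratio to mt-Co1 had an SD of 0.0731. Control 3, the library rich in nuclear ribosomal RNA, thus had the most 12S but not the most 16S. In CPM, control 1 had the lowest level of every mitochondrial feature among the controls. By share of all counts control 3 was the lowest control for 16S (38.4%, against 39.0% in control 1) and for mt-Co3 (1.19%, against 1.39%). In knockouts the spread of 12S, 1.82-fold, was wider than that of 16S at 1.24-fold and of each mRNA feature at 1.04-fold to 1.27-fold.

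**Figure D5:**
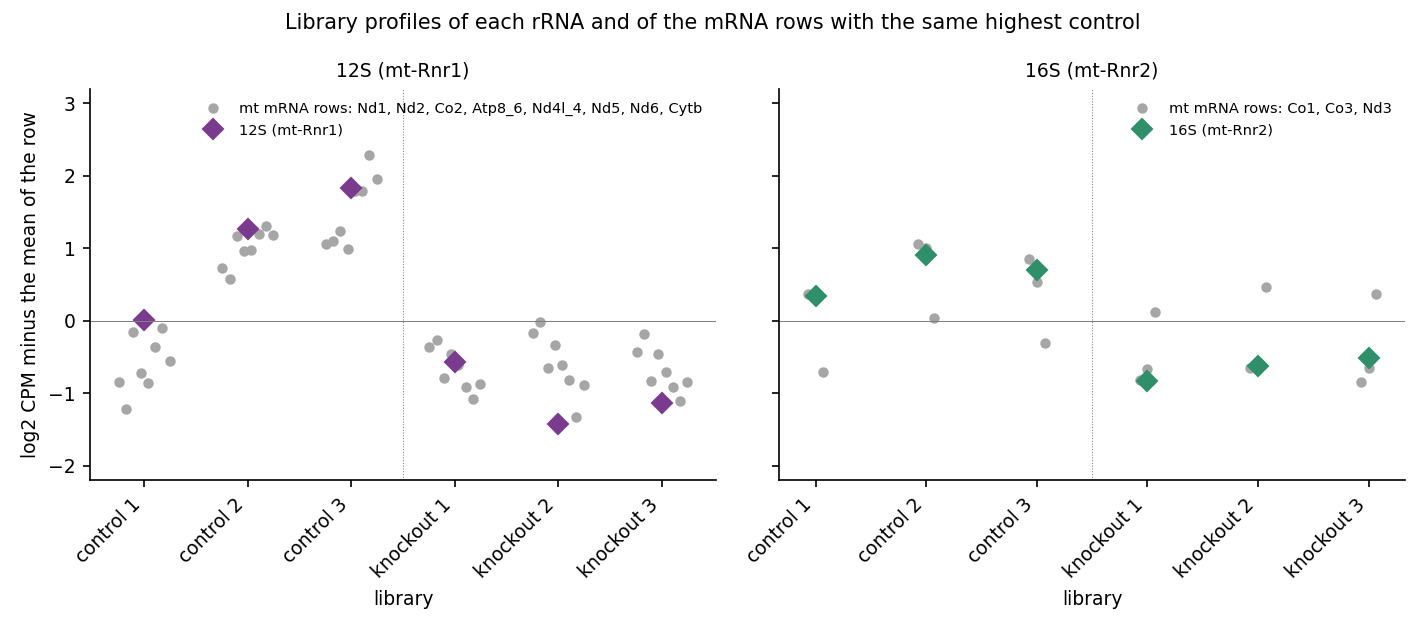
Level of 12S and of 16S in each library (diamonds, log2 CPM minus the mean of the feature over the 6 libraries), with the mitochondrial mRNA features that were highest in the same control library (grey points). In the panel of 12S control 3 is the highest library and knockout 2 the lowest, and in that of 16S control 2 is the highest and knockout 1 the lowest.

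Likeness of profile was measured as the root mean square difference of log2 CPM, each centred on its own mean, over the 6 libraries and 14300 other genes. The genes nearest to 12S were Foxo6os (0.254), Zadh2 (0.268), mt-Nd6 (0.289), Gm12439 (0.302) and Gm44005 (0.303), of which Foxo6os and Gm12439 had at most 3.25 CPM in any library. Nearest to 16S were Ephb1 (0.0858), Acacb (0.0913), Tacc2 (0.0934), A830082K12Rik (0.0992) and Anks1 (0.0994), while mt-Co3 was at rank 9 (0.118) and mt-Co1 at rank 29 (0.162). Of these, A830082K12Rik had at most 2.0 CPM in any library and Ephb1 at most 4.56 CPM. The 2 rRNAs were 0.657 apart, so 16S was only at rank 299 in the order of likeness to 12S. In the order of likeness to 16S, 12S was at rank 5799. Acacb, an acetyl-CoA carboxylase of heart and muscle, was at 229.9, 289 and 257 CPM in controls and 85.7, 97.1 and 115 CPM in knockouts.

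Nuclear genes that act on these rRNAs were counted by role. Of the 14302 genes tested 18.7% were called higher and 17.8% lower, with a median of -0.013 on the log2 scale. Of 11 factors that modify 12S or assemble the small subunit, 0 were higher and 2 lower, with a median of -0.007. Mettl17, a small subunit assembly factor, fell by 0.60 (adjusted p = 0.0226) and Trmt2b, a methyltransferase of 12S and tRNAs, by 0.57 (adjusted p = 0.0226). In the authors' deposited table Mettl17 did not pass the test (-0.57, adjusted p = 0.071). The lower members numbered 0 without control 2 and 1 without control 1, control 3 or knockout 3, and with library size alone 7 were higher and 0 lower, both named genes turning to 0.10. Of 21 factors for 16S and the large subunit, 4 were higher and 0 lower, with a median of 0.11. Ddx28, a helicase of large subunit assembly, rose by 1.05 (SE 0.19, adjusted p = 2.25e-03), from 4.25 ± 0.519 to 8.84 ± 1.43 CPM (SD, n = 3 each). Mpv17l2 rose by 0.85 (adjusted p = 0.0244), Gtpbp6 by 0.59 (adjusted p = 0.0256) and Ngrn, which takes part in pseudouridylation of 16S, by 0.58 (adjusted p = 0.0342). The first pair lost the call without control 2, control 3 or knockout 2, and Ngrn with any library left out but knockout 1. The higher members numbered 2 without control 2, 1 without control 3 or knockout 2, and 16 with library size alone. Without knockout 1 or knockout 2, 1 member was called lower.

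Of the 8 tested genes of mitochondrial tRNA end processing, which hold the nucleases that free the rRNAs along with other factors, 3 were higher and 1, Elac2, was lower, with a median of 0.20, or 6 and 1 with library size alone. Without knockout 1 the lower members numbered 2. The RNase P subunit gene Trmt10c rose by 0.68 (adjusted p = 3.93e-03), from 10.4 ± 1.17 to 16.7 ± 0.167 CPM, and Trnt1, the CCA-adding enzyme, by 1.21 (adjusted p = 2.71e-04), from 13.4 ± 2.39 to 31.1 ± 2.40 CPM (SD, n = 3 each). Prorp, the nuclease subunit of RNase P, listed as 1110008L16Rik, rose by 0.64 (adjusted p = 0.0494). With 1 library left out, that call held for control 1 and knockout 2, and the authors' deposited table gives an adjusted p of 0.0773. Of 7 tested genes of mitochondrial transcription 0 were higher and 1 lower, with a median of -0.26, or 2 and 0 with library size alone. That one, Tfb2m, needed for start of transcription, fell by 0.43 (adjusted p = 0.0365), and its call held on leaving out control 1 but none of the other libraries. The authors' deposited table gives it an adjusted p of 0.136. Of 14 genes of mitochondrial RNA turnover 2 were higher and 4 lower, with a median of -0.10, or 7 and 0 with library size alone. Among ribonuclease genes Rexo2 and Pde12 rose by 0.84 and 0.74, while Lactb2 fell by 0.49. The Lactb2 call was lost without control 1, control 3 or knockout 3, and the authors' deposited table gives an adjusted p of 0.0522. Fastk, an RNA-binding factor, fell by 0.57. The lower members numbered 2 without control 1, control 2, control 3 or knockout 3, and the higher ones 4 without knockout 1.

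Transcripts of the proteins that 12S and 16S bind in the ribosome were called in both directions, as were those of all genes. Of the 14302 genes tested 18.7% were called higher and 17.8% lower. Of 31 tested small subunit protein genes 4 were higher and 4 lower, with a median of 0.00078, and Mrps18b rose by 1.13 (adjusted p = 3.17e-04) while Mrps35 fell by 0.68 (adjusted p = 8.55e-03). Of 49 tested large subunit protein genes 8 were higher and 6 lower, with a median of -0.024. Mrpl20 rose by 0.96 and Mrpl24 by 0.95, whereas Mrpl42 fell by 0.90 (adjusted p = 5.66e-04), from 97.9 ± 4.09 to 52.5 ± 6.87 CPM (SD, n = 3 each). Small subunit members numbered 2 higher without control 2, control 3 or knockout 2 and 2 lower without control 1, and large subunit members numbered 5 higher without knockout 2. With library size alone 19 and 35 were higher and 0 and 0 lower, Mrps35 turned to 0.012 and Mrpl42 moved to -0.20, which did not pass the test. On that scale 56.6% of all tested genes were called higher and 3.86% lower.

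An annotated nuclear transcript that shares at least 100 bases at 80% identity or more was found for 16S and not for 12S. It is Gm20594, 88.4% identical over 439 bases, and it held 0 counts in all 6 libraries. At 95% identity, where 8 of the 11 mRNA features have such a nuclear copy, neither rRNA has one. Unannotated nuclear copies were not searched.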

How the data were processed

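RNA was sequenced from the hearts of 3 control and 3 knockout mice, grouped and numbered by the sample titles. Per the submitters' processing notes mm10 was the build and the tools were DESeq2 1.16.1, featureCounts 1.5.1, SAMtools 1.5 and HISAT2 2.0.5, with no role stated. The authors deposited whole-number counts per gene. Their deposited normalised signal is the counts over a size factor for the library. A comparison table deposited by the authors holds, per gene, log2 fold changes, a test score and p-values. The sources used here do not say how multi-mapping reads were counted. Of 51875 Ensembl identifiers 51596 were found in GENCODE M21.

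Counts were tested in edgeR 4.0.16 (R 4.3.3) by quasi-likelihood over 14302 genes, with TMM scaling, the filterByExpr filter (minimum count 10), Benjamini-Hochberg adjustment over all genes and a threshold of 0.05. Adjusted p-values are from this test unless another is named. Shares and ratios were compared with exact permutation tests in scipy 1.17.1, nuclear copies sought with blastn 2.17.0. DESeq2 1.42.0 and limma-voom 3.58.1 were alternatives. The fit was tested on simulated data. No library pair within a group agreed within sampling noise (chi-square per degree of freedom at least 8.93). Named genes are the 2 rRNAs, the mitochondrial mRNAs as comparators, Elac2, up to 4 called members of each list by adjusted p, and the 5 genes of nearest profile per rRNA. Other genes were named after their values were seen. The members and lists were chosen with earlier results of these data known.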

Additional observations from a re-analysis of the deposited data

How the results depend on the processing

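The fall of 12S kept its direction and its call under 17 of 18 alternatives, the exception being library size taken as the mitochondrial mRNA sum (-0.78, adjusted p = 0.0569). Leaving out 1 library gave -2.56 to -1.76. The fall of 16S kept its direction under 18 of 18 and its call under 15, the exceptions being library size alone (-0.60, adjusted p = 0.0811), the mitochondrial mRNA sum (-0.036, adjusted p = 0.924) and leaving out control 2 (-1.18), with a range of -1.46 to -1.18 over the libraries left out. The shares of both rRNAs and the 12S to 16S ratio kept their direction under each alternative. For the ratio only leaving out a library could move the value. Counts per kilobase, the authors' normalised values and the replicate block cannot change its mean log2 difference. Leaving out 1 library gave -6.55 to -3.03 percentage points for 12S, -15.0 to -12.0 for 16S and -1.12 to -0.39 for the log2 ratio. The log2 ratio to the summed mRNAs with 1 library left out ranged from -0.20 to -0.022 for both rRNAs together, from -1.05 to -0.54 for 12S, and from -0.146 to 0.129 for 16S, whose sign turned without control 1, knockout 1 or knockout 2. For both rRNAs together it reached -0.87 with the median within each library of the ratios to single mRNAs, a median that falls on different mRNAs. Called genes numbered 5215, or 8645 with library size alone (8093 higher, 552 lower) and 3006 at an adjusted p under 0.01 (1591 higher, 1415 lower). With 1 library left out, between 3694 and 5837 genes were called (higher calls 1899 to 2903, lower calls 1795 to 2934). With library size alone, which moves all genes up, Mettl17 and Trmt2b turned to 0.10, Tfb2m to 0.27, Fastk to 0.13, Lactb2 to 0.20, Mrps35 to 0.012, Mrps15 to 0.067 and Malat1 to 0.037. Gm42418 went from -6.29 to 1.36 without control 3, which held most of its counts, and ranged down to -7.03 with 1 library left out. The replicate number as a block gave -2.11 for 12S (adjusted p = 0.0171), -1.31 for 16S (adjusted p = 0.0312) and 4293 called genes. The mean paired log2 difference in the 12S to 16S ratio was -0.76 (exact sign-flip p = 0.5), a mean that pairing leaves as it is. With 3 pairs the smallest p that a sign-flip test can give is larger than 0.1. The labels do not say that the numbers pair the mice, and the correlations between libraries of one number, after removing group means, were -0.198, 0.085 and -0.087. With 3 mice per group no exact permutation test could fall below 0.1, nor can cre be told apart from the loss of Elac2. Whether the mice of a group shared a litter or a preparation is not given, so p-values measure only the spread between these libraries.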
